A study of Mus musculus with 4 samples.

Results

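The transcripts of the mitochondrial genome were read in mouse embryos, in poly(A)-selected RNA of the first pharyngeal arch. The members are all rows of the deposited gene table whose symbol starts with mt-, which gave 37 of 52459 rows. They comprise 13 protein-coding rows, 2 ribosomal RNA (rRNA) rows and 22 transfer RNA (tRNA) rows. Values are normalized read counts, that is, reads counted per gene and divided by 1 size factor per library. The first pharyngeal arch (PA1) is the embryonic outgrowth that forms the jaws. The stage is given as E9.5-E9.75, which is 25 to 27 somites.

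Wild-type arches and Wnt1-Cre;pMes-Bmp4 arches, called transgenic below, gave 2 libraries each. In the transgenic arches a Cre recombinase driven by the Wnt1 promoter turns on a Bmp4 transgene in neural crest cells and their descendants. With neither transgene sampled on its own, effects of Bmp4, of Cre and of genetic background cannot be told apart. The whole arch also holds ectoderm, endoderm, vessels and blood, which are not of neural crest origin. Whether the libraries are from different embryos or litters is not stated in the labels, so p-values reflect no more than the spread between these libraries, and that spread may be technical.

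Libraries held 29607541 to 47849092 reads on genes. Bmp4, the transgene's product, stood at 681.7 and 437.1 normalized reads in the wild-type libraries against 2656 and 1745 in the transgenic ones, 3.93-fold higher. All 13 markers fixed for arch mesenchyme reached the minimum level for testing, a mean of at least 10 normalized reads over the 4 libraries. Their summed level was 26617 and 37021 in the wild-type libraries against 38009 and 28196 in the transgenic ones. Their median log2 fold change was -0.33, with 9 of the 13 below 0. Limma, at an adjusted p under 0.05, called 2 of them higher and 1 lower, beside 2.97% and 5.28% of all genes tested.

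The mitochondrial genome is a small circle that encodes core subunits of the respiratory chain and of ATP synthase, together with the rRNAs and tRNAs needed to translate them. Both strands are transcribed as long precursors, from which the tRNAs are cut out so that the messenger RNAs and rRNAs lying between them are released. Most of the messenger RNAs receive short poly(A) tails, and all other proteins of the organelle come from nuclear genes. Pieces of mitochondrial DNA have also been inserted into nuclear chromosomes during evolution and are annotated there as pseudogenes.

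One such insertion shares sequence with 7 of the 13 protein-coding rows. The GENCODE M21 annotation of GRCm38, which is mm10, places 7 unprocessed pseudogenes side by side on the minus strand of chromosome 1, chr1:24611535-24616197, a block of 4663 bases. They match the mitochondrial genome from chrM:6381-11042, from the end of mt-Co1 to within mt-Nd4. The copies of mt-Co2 (Gm28661, 681 bases), mt-Atp6 (Gm10925, 678 bases), mt-Co3 (Gm28437, 783 bases), mt-Nd4l (Gm10222, 294 bases) and mt-Nd4 (Gm28439, 876 bases) were identical to the mitochondrial gene over the whole length of the copy. The copy of mt-Nd3, Gm28438, differed from it at a single base, T3C, counted from the first base of the gene. The first bases of both are shown with that base in capitals, since it is the whole difference between the rows over the copy's 345 bases.
mt-Nd3: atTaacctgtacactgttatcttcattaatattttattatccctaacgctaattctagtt
Gm28438: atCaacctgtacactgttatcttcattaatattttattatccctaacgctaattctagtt

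In mt-Co1 the shared sequence starts inside the gene, at base 1067, and runs for 479 bases to its end. The boundary is shown with the identical stretch in capitals, from base 1054 of mt-Co1 and from the first base of its copy Gm29216.
mt-Co1: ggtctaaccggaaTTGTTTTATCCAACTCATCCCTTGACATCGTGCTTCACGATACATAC
Gm29216: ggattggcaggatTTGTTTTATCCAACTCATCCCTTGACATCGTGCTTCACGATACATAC

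Every stretch of 100 bases along each row was searched for in the other annotated transcripts. For mt-Co2, mt-Atp6, mt-Co3, mt-Nd3 and mt-Nd4l between 97.6% and 99.9% of the stretches were present in the chromosome 1 copies. The share was 26.3% for mt-Co1 and 60.8% for mt-Nd4. It was 0 for mt-Nd1, mt-Nd2, mt-Nd5, mt-Nd6, mt-Cytb and both rRNAs. Annotated transcripts outside this block held 15% of the stretches of mt-Co2, 5.53% of those of mt-Co1 and 3.19% of those of mt-Nd2. The last protein-coding row, mt-Atp8, also had a share of 0 and has no annotated copy. It lies between mt-Co2 and mt-Atp6, and the distance between their matching stretches was 233 bases on both chromosome M and chromosome 1. The bases of chromosome 1 between those copies were not compared with mt-Atp8, so it is placed with the copied rows by position only. The 6 rows mt-Co2, mt-Atp8, mt-Atp6, mt-Co3, mt-Nd3 and mt-Nd4l are called the copied stretch from here on. A read inside identical sequence cannot be placed by its letters, and the authors' treatment of such reads is not given in the sources used here, so values of these 6 rows are uncertain.

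Some rows also share bases with each other. The genes mt-Nd5 and mt-Nd6 lie on opposite strands and overlap by 14 bases at their ends. The last 50 bases of each are shown with the overlap in capitals, since no source states whether counting used the strand, and reads of a gene and its antisense partner cannot then be told apart.
mt-Nd5: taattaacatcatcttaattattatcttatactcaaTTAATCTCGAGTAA
mt-Nd6: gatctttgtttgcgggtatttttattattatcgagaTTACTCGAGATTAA

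The ATP synthase genes mt-Atp8 and mt-Atp6 are read from a shared messenger RNA and overlap by 43 bases, the largest overlap among the rows. These bases are in capitals at the end of mt-Atp8.
mt-Atp8: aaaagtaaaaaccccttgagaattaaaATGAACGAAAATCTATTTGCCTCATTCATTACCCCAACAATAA

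Outside the copied stretch the mitochondrial transcripts were lower in transgenic arches. Both rRNAs and 6 of the 7 protein-coding rows fell, and no mitochondrial row rose. Among those protein-coding rows mt-Co1 and mt-Nd4 share part of their sequence with the chromosome 1 copies. Of the 7 rows outside the stretch that share none, 5 protein-coding and 2 rRNA, 6 were called lower and 0 higher. Over all rows tested, 8 of 16 were lower and 0 higher at a limma adjusted p under 0.05 (8 rows had an unadjusted p under 0.05). Among all 16746 genes tested 5.28% were called lower and 2.97% higher. The same 8 rows were called lower, and 0 higher, by edgeR, beside 5.46% and 2.44% of all genes, and by DESeq2, beside 9.45% and 7.67%. In 10 of the 16 rows both transgenic libraries lay below both wild-type libraries, which was so for 29.7% of all genes tested, and the other 6 rows, in which the groups overlapped, were those of the copied stretch. In bulk RNA, fewer cells rich in these transcripts and less of the transcripts per cell cannot be told apart.

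These calls depended on both wild-type libraries. Without wild-type replicate 1 limma called 0 mitochondrial rows (8 at an unadjusted p under 0.05), and the 8 rows had adjusted p values of 0.115 to 0.217. Without wild-type replicate 2 it also called 0 (7 at an unadjusted p under 0.05), with adjusted p values of 0.21 to 0.469. The first of these fits called 0% of all genes in either direction, and the second 0% lower and 0.00597%, a single gene, higher. The log2 fold changes of the 8 rows stayed between -1.62 and -0.60.

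**Figure D1:**
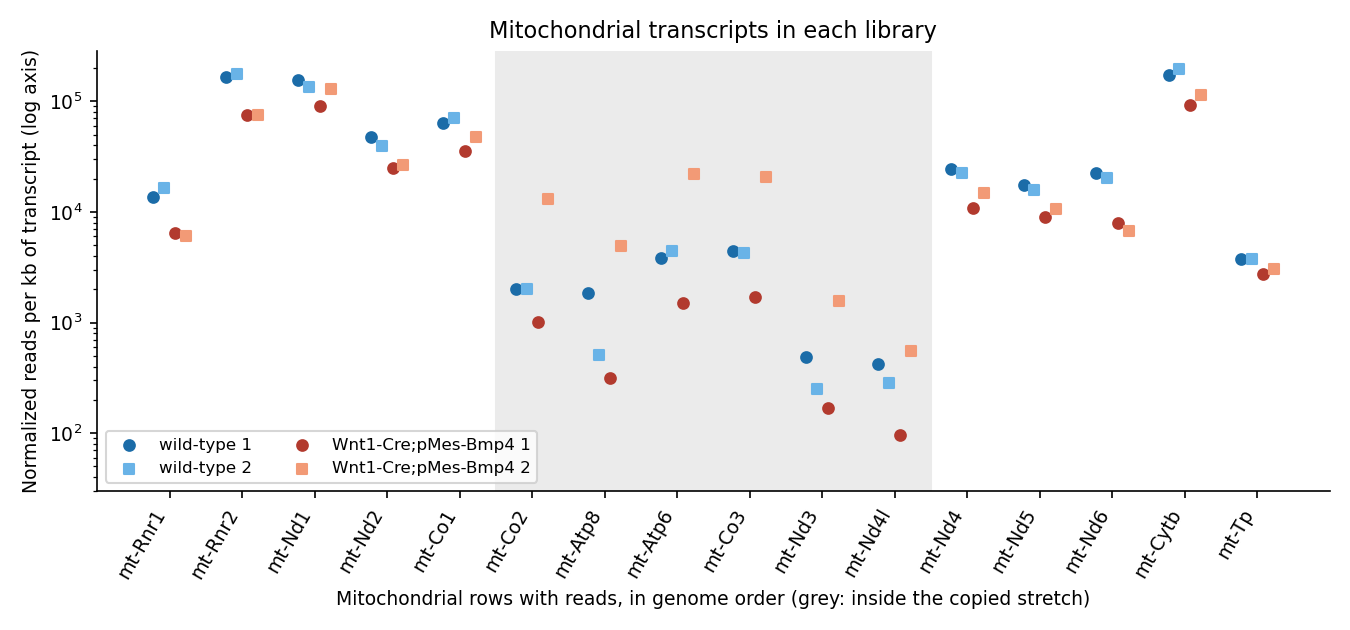
Normalized reads per kb of transcript (log axis) for the 16 mitochondrial rows with reads, in genome order, with 1 point per library. Outside the grey band both transgenic libraries lie below both wild-type libraries, whereas inside it transgenic library 2 is the highest and library 1 the lowest of the 4.

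The rRNAs are the RNA of the organelle's own ribosome, and their genes lie near the start of the heavy-strand precursor. For mt-Rnr2, the large rRNA at chrM:1094-2675, the libraries read 262852 and 280455 in wild-type arches against 117678 and 118923 in transgenic ones. It was 2.3-fold lower, with means of 271654 ± 12448 and 118300 ± 880 (SD, n = 2 each), a log2 difference of -1.20 ± 0.14 (SE, limma adjusted p 0.0194). The replicates nearly coincide and the groups are far apart.

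The small rRNA, mt-Rnr1 at chrM:70-1024, was read at 12885 and 15570 in wild-type arches against 6148 and 5782 in transgenic ones. It was 2.39-fold lower, with a log2 difference of -1.25 ± 0.14 (SE, limma adjusted p 0.0194). Per kb of transcript the small rRNA stood at 14898 normalized reads in wild-type against 171715 for the large rRNA, although both are parts of the same ribosome. The libraries were poly(A)-selected, so the level of an rRNA here is not its amount in the cell. Reads of mt-Rnr1 per 100 reads of mt-Rnr2 were 4.9 and 5.55 in wild-type arches against 5.22 and 4.86 in transgenic ones, and the groups overlapped (two-sided exact permutation p 0.667).

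Complex I, the NADH dehydrogenase that feeds electrons into the respiratory chain, takes 7 of its subunits from this genome. The lowest value relative to wild-type among all rows was that of mt-Nd6, at chrM:13552-14070, the protein-coding gene annotated on the minus strand while the other 12 are on the plus strand. Its libraries read 11620 and 10509 in wild-type arches against 4092 and 3508 in transgenic ones. It was 2.91-fold lower, a log2 difference of -1.54 ± 0.14 (SE) at a limma adjusted p of 0.0182. Its log2 fold change stayed between -1.66 and -1.43 in every alternative tried.

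The neighbouring mt-Nd5, at chrM:11742-13565 on the other strand, was at 31818 and 29032 in wild-type arches against 16545 and 19352 in transgenic ones. It fell 1.7-fold, with a log2 difference of -0.76 ± 0.14 (SE, limma adjusted p 0.0274). The mt-Nd4 row, which is 60.8% shared with its copy, went from 33863 and 30926 to 14857 and 20444 and was 1.84-fold lower, with a limma adjusted p of 0.0321. Of the reads counted on mt-Nd4 and its copy together, 98.5% to 99.7% lay on mt-Nd4 in each library. Reads in the shared sequence may have been counted on neither row, so this share does not show how far the copy affects mt-Nd4.

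Also of complex I, mt-Nd2, at chrM:3914-4951, went from 49174 and 40747 to 25884 and 27728. It fell 1.68-fold, with a log2 difference of -0.74 ± 0.14 (SE, limma adjusted p 0.0319). Its neighbour mt-Nd1, at chrM:2751-3707, did not pass. The libraries of mt-Nd1 read 148522 and 127781 in wild-type arches against 87069 and 124501 in transgenic ones, so that transgenic library 2 came close to wild-type library 2. Its log2 fold change was -0.40 ± 0.20 (SE, limma adjusted p 0.228), and it was -0.66 without transgenic replicate 2 and -0.15 without replicate 1.

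Complex III, which passes electrons on to cytochrome c, has a single subunit from this genome, cytochrome b. Its row mt-Cytb, at chrM:14145-15288, had the highest level per kb of all members in wild-type, 183605 normalized reads. The libraries read 196380 and 223709 in wild-type arches against 106486 and 130752 in transgenic ones, and the groups were apart. It fell 1.77-fold, with a log2 difference of -0.83 ± 0.17 (SE, limma adjusted p 0.0343). With quantile normalization the limma adjusted p was 0.0635.

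Complex IV, cytochrome c oxidase, takes its 3 catalytic core subunits from this genome. Of these mt-Co1, at chrM:5328-6872, lies mostly outside the copied stretch. It read 99162 and 109823 in wild-type arches against 54956 and 73502 in transgenic ones. It was 1.63-fold lower, with a log2 difference of -0.72 ± 0.17 (SE, limma adjusted p 0.0499), at the edge of the threshold. The adjusted p was 0.051 with a pseudocount of 5, 0.052 after the length correction and 0.0519 when mt-Co1 was summed with its copy.

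**Figure D2:**
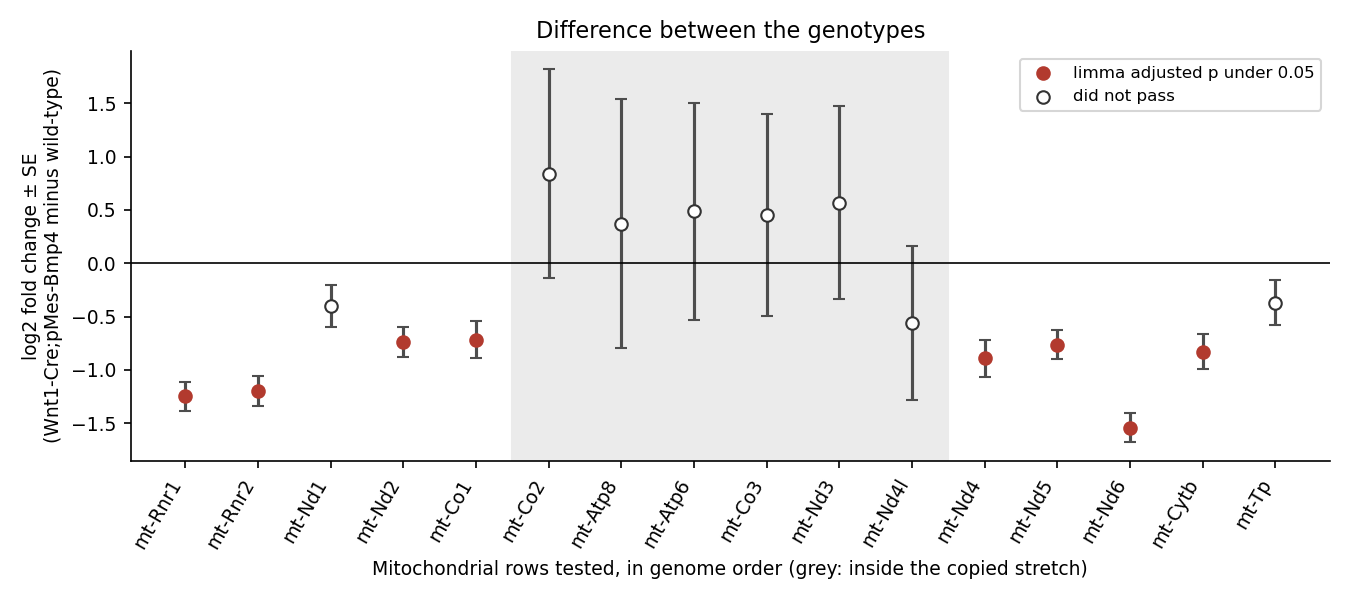
Log2 fold change (Wnt1-Cre;pMes-Bmp4 minus wild-type) with its SE from limma for the 16 rows tested, in genome order. The 8 filled points passed at an adjusted p under 0.05 and all lie below 0, while the 6 rows in the grey band have SEs of 0.72 to 1.17 and none of them passed.

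Inside the copied stretch the 2 transgenic libraries stood on opposite sides of wild-type. In wild-type the 6 rows also held far fewer counted reads than their neighbours, with 352 to 4349 normalized reads per kb against 14898 to 183605 per kb in the 9 protein-coding and rRNA rows outside it. As the treatment of reads in identical sequence is not given, these counts are not a measure of RNA amount. In all 6 rows transgenic library 1 was the lowest of the 4 libraries, between 2 and 3.75-fold under the wild-type mean. Library 2 was the highest in all 6, between 1.57 and 6.44-fold over the wild-type mean. The 2 transgenic libraries therefore differed by 5.68 to 15.8-fold in these rows, against 0.857 to 1.43-fold (library 2 over library 1) in the 9 rows outside.

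The largest counts of the stretch were those of mt-Co3, a complex IV subunit, which read 3457 and 3361 in wild-type arches against 1345 and 16143 in transgenic ones. The log2 fold change was 0.45 ± 0.95 (SE, limma adjusted p 0.784). The ATP synthase subunit mt-Atp6 read 2611 and 3002 in wild-type arches against 1030 and 14929 in transgenic ones, with an adjusted p of 0.784. For mt-Co2, which carries the copper centre that takes up electrons from cytochrome c, the values were 1383 and 1371 against 686.8 and 8863, with an adjusted p of 0.601. The wild-type libraries agree closely in these 3 rows, and the transgenic ones do not.

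The other 3 rows of the stretch were lower still. The second ATP synthase subunit, mt-Atp8, read 376.8 and 102.9 in wild-type arches against 63.99 and 1010 in transgenic ones. The small complex I subunit mt-Nd3 read 168.4 and 86.4 against 58.66 and 545.6. The lowest row was mt-Nd4l, also of complex I, at 124.6 and 84.34 against 28.8 and 163.7, which is 27 to 168 reads. Here the wild-type libraries differed too, by more than 3-fold in mt-Atp8, with library 1 above library 2 in all 3 rows. Adjusted p values in limma were 0.858, 0.71 and 0.639.

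Leaving out a transgenic library turned the direction of these rows. Without transgenic replicate 2 limma called 15 of the 16 rows lower, all but mt-Tp, with all 6 of the stretch among them at log2 fold changes of -1.80 to -1.0. Without replicate 1 it called the same 8 rows lower as with all libraries, and 5 of the stretch higher, mt-Co2, mt-Atp8, mt-Atp6, mt-Co3 and mt-Nd3, at 2.17 to 2.69. In these fits the lone transgenic library was assumed to vary like the wild-type pair. Without replicate 2, 11.4% of all genes were called lower and 7.17% higher, and without replicate 1 these shares were 16.2% and 16%.

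Most copies on chromosome 1 also differed between the transgenic libraries. Gm10925, the copy of mt-Atp6, read 7614 and 2031 in wild-type arches against 1088 and 11754 in transgenic ones, a 10.8-fold difference between the transgenic libraries. Gm28437, the copy of mt-Co3, read 20598 and 17299 in wild-type arches against 6449 and 20026 in transgenic ones. It thus held more reads than mt-Co3 itself in every library, and the share of the pair's reads on mt-Co3 was 14.4% and 16.3% in wild-type arches against 17.3% and 44.6% in transgenic ones.

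Transgenic library 2 was above library 1 by 2.68 to 10.8-fold in 6 of the copies. The exception was Gm28438, the copy of mt-Nd3, at 3516 and 2579 in wild-type arches against 1924 and 2061 in transgenic ones. Its groups did not overlap, and it did not pass (limma log2 fold change -0.60, adjusted p 0.0755). Of the reads of this pair 4.57% and 3.24% lay on mt-Nd3 in wild-type, and 2.96% and 20.9% in transgenic arches. None of the 7 copies passed in limma (0 lower, 0 higher), with adjusted p values of 0.0755 to 0.944.

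Adding each copy to its mitochondrial row did not bring the libraries together. The sums for mt-Co2 were 2713 and 1964 in wild-type arches against 1230 and 11734 in transgenic ones, and those for mt-Atp6 were 10225 and 5034 against 2118 and 26683. Only for mt-Co1, mt-Nd3 and mt-Nd4 did the sums of the 7 pairs lie apart between the groups, lower in transgenic arches. Of all genes tested, 29.7% had both transgenic libraries below both wild-type libraries. In the fit with these sums limma called 7 mitochondrial rows lower and 0 higher, beside 5.38% and 3.04% of all genes, and the log2 fold changes of mt-Co3 and mt-Nd3 turned to -0.41 and -0.46.

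**Figure D3:**
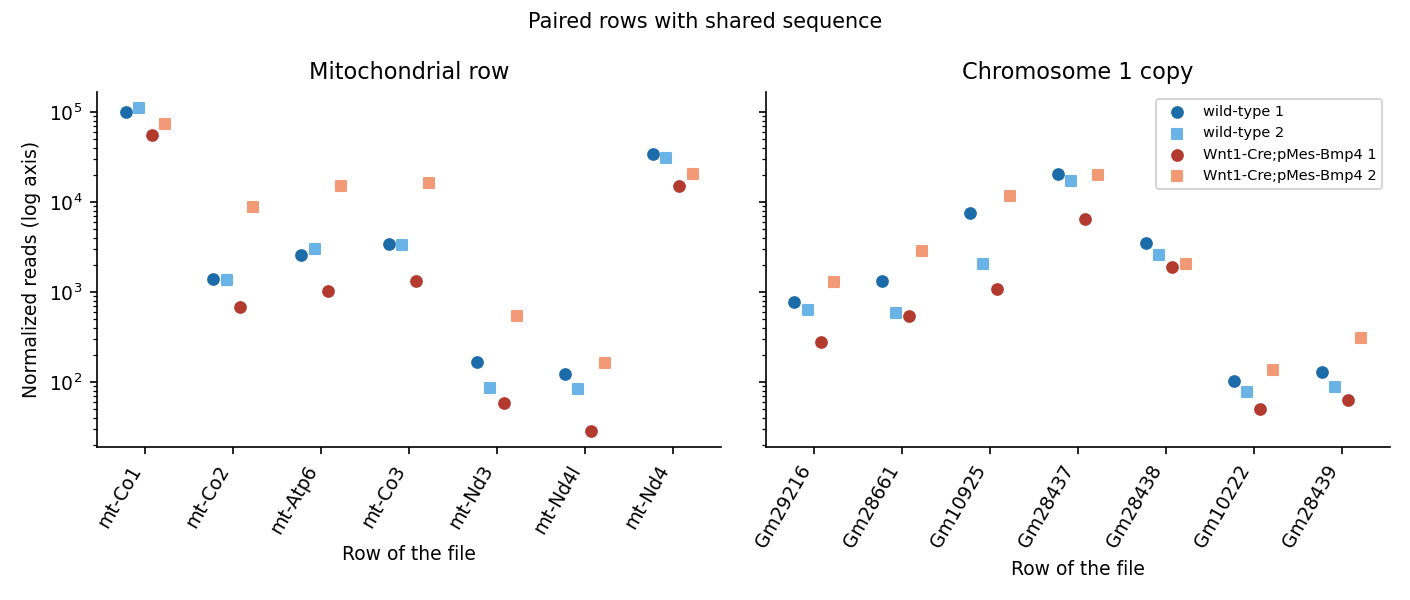
Normalized reads (log axis) of the 7 mitochondrial rows that share sequence with chromosome 1, at left, and of the chromosome 1 copies, at right, with 1 point per library. Transgenic library 2 is the highest in mt-Co2, mt-Atp6, mt-Co3, mt-Nd3 and mt-Nd4l, and library 1 is the lowest of the 4 in all 14 rows.

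The tRNA rows were almost empty. Of 22 rows, 21 had no read in any library. They are 59 to 75 bases long, and a count of 0 allows up to 3 reads, or 2.23 to 3.64 normalized reads depending on the library, which limits reads counted on these rows and not tRNA in the cells. The exception was mt-Tp, the tRNA for proline, at chrM:15356-15422 on the minus strand, which is the last annotated row before the noncoding control region of the circle. It is printed as the only tRNA with a value.
mt-Tp: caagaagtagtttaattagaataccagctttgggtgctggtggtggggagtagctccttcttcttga

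It held 250 and 252 normalized reads in wild-type and 183.4 and 204.9 in transgenic arches, which is 169 to 337 reads. The groups did not overlap, but the row did not pass, with a log2 difference of -0.37 ± 0.21 (SE, limma adjusted p 0.289). After the length correction the log2 fold change was 0.20.

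As a share of all reads on genes, which does not depend on size factors, mitochondrial rows took 2.41% and 2.52% in wild-type arches against 1.31% and 1.58% in transgenic ones. The 95% Wilson intervals, which cover counting error only, ran from 2.404 to 2.412 and from 2.52 to 2.53 in wild-type and from 1.301 to 1.309 and from 1.573 to 1.582 in transgenic arches. Means were 2.47% ± 0.0827 and 1.44% ± 0.193 (SD, n = 2 each), a 1.71-fold lower share. The groups did not overlap, and the two-sided exact permutation p was 0.33, the smallest that 2 against 2 libraries can give.

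The rRNA rows and the protein-coding rows were lower by different folds. The rRNA rows took 0.777% and 0.852% of reads in wild-type and 0.37% and 0.347% in transgenic arches, 2.27-fold lower. The 5 protein-coding rows outside the copied stretch that share no stretch with the chromosome 1 copies took 1.23% and 1.24% against 0.717% and 0.852%, 1.58-fold lower. Reads on the rRNAs per 100 reads on those 5 rows were 63 and 68.6 in wild-type arches against 51.6 and 40.8 in transgenic ones (two-sided exact permutation p 0.33 for the log2 ratio, the smallest possible). The 6 rows of the copied stretch took 0.0229% and 0.0231% in wild-type arches against 0.00959% and 0.116% in transgenic ones, so they weigh little in the total.

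**Figure D4:**
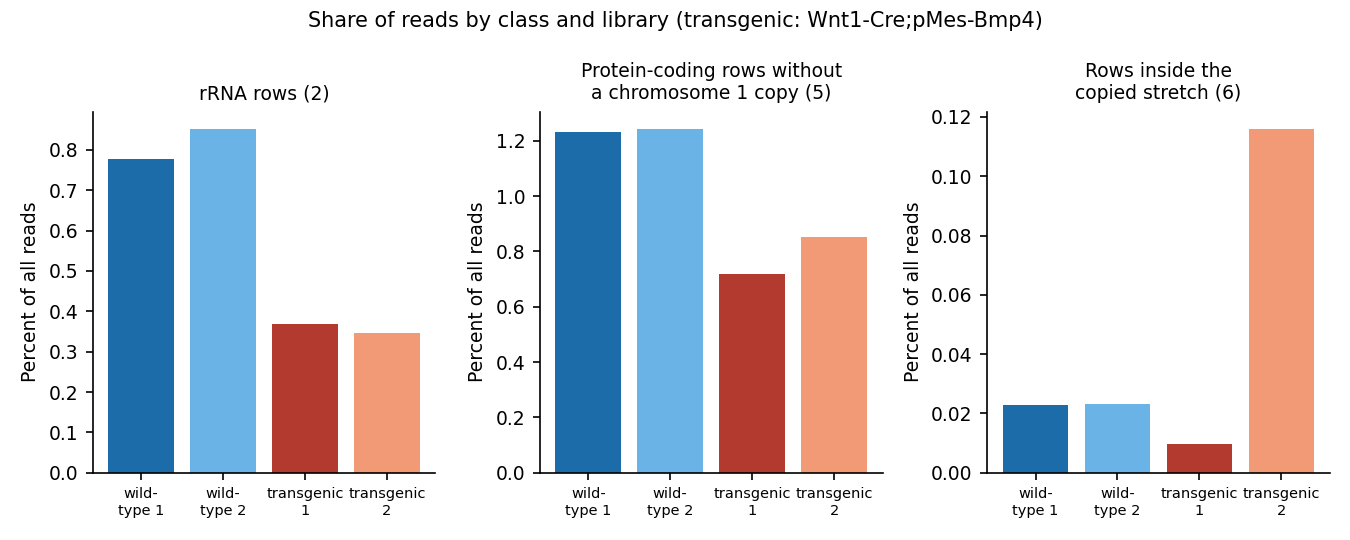
Percent of all reads on genes, with 1 bar per library and a separate axis from 0 in each panel. From left, the panels show the 2 rRNA rows, the 5 protein-coding rows outside the copied stretch that share no stretch with the chromosome 1 copies, and the 6 rows of the copied stretch. In the first 2 panels both transgenic libraries are below both wild-type libraries, and in the third library 2 reaches 0.116%.

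Among reads on the mitochondrial messages the proportion of mt-Nd6 was lower in both transgenic libraries. The libraries were poly(A)-selected, not every mitochondrial message receives a tail, and the strand setting is not given. The proportion is therefore one of counted reads and not of RNA in the cells. Reads of mt-Nd6 per 100 reads of the other 12 protein-coding rows were 2.05 and 1.84 in wild-type arches against 1.32 and 0.801 in transgenic ones. The log2 ratio differed by -0.92 between the groups, and the two-sided exact permutation p was 0.33, the smallest possible. Leaving out transgenic replicate 2 the difference was -0.55, and leaving out replicate 1 it was -1.28. With only the 4 plus-strand rows outside the copied stretch that share no stretch with the chromosome 1 copies as denominator it was -0.88, and with mt-Nd5 and mt-Cytb it was -0.72.

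The percent of reads taken by each of the 13 protein-coding rows gave 3 rows whose groups did not overlap. The share of mt-Nd1 was higher in transgenic arches, at 27.8% and 28.2% against 25.7% and 22%, and those of mt-Nd4 and mt-Nd6 were lower. For mt-Nd4 it was 5.85% and 5.33% in wild-type arches against 4.74% and 4.63% in transgenic ones. Exact permutation p values were 0.33 for each, with a Benjamini-Hochberg value of 0.963 over the 13 rows, so no single share can be called different. In transgenic library 2 these shares are lowered by the copied stretch, where mt-Co3 alone took 3.66%. Over the 7 protein-coding rows outside that stretch the groups were apart in 4 rows, 1 higher and 3 lower (smallest Benjamini-Hochberg value 0.583). There mt-Nd1 took 26% and 22.3% in wild-type arches against 28.1% and 31.1% in transgenic ones. The share of mt-Cytb was lower too, at 34.42% and 39.07% against 34.36% and 32.71%. Reads of mt-Nd1 per 100 of mt-Rnr2, which lies ahead of it on the precursor, were 56.5 and 45.6 in wild-type arches against 74 and 105 in transgenic ones (two-sided exact permutation p 0.33), a pair chosen after the values were seen.

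Nuclear genes of mitochondria were called in both directions. Of 248 genes tested in 12 lists, 10 (4.03%) were higher and 3 (1.21%) were lower in limma, beside 2.97% and 5.28% of all genes tested. The median log2 fold change was 0.09, against 0.02 for all genes tested and -0.83 for the 9 mitochondrial rows outside the copied stretch. Leaving out either wild-type library gave 0 of the 248 called in limma, leaving out transgenic replicate 1 gave 57 higher and 20 lower (16% and 16.2% of all genes), and leaving out transgenic replicate 2 gave 16 higher and 7 lower (7.17% and 11.4% of all genes). Nuclear subunits of complexes I to V had medians of -0.01, 0.54, 0.09, -0.07 and -0.10. Among them 2 of 36 genes of complex I, 2 of 4 of complex II, 0 of 9 of complex III, 0 of 11 of complex IV and 2 of 17 of ATP synthase rose, and none fell (0 lower in each list).

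Complex II, succinate dehydrogenase, has no subunit from the mitochondrial genome. Its catalytic flavoprotein Sdha read 4270 and 3974 in wild-type arches against 6355 and 7127 in transgenic ones, 1.64-fold higher (limma adjusted p 0.0279), and its membrane anchor Sdhd was 1.75-fold higher (adjusted p 0.0289). The ATP synthase catalytic subunit Atp5b, which works in the same complex as mt-Atp6, read 64074 and 55486 against 105631 and 107841. It was 1.79-fold higher, with an adjusted p of 0.026, and Atp5a1 was 1.42-fold higher (adjusted p 0.0499). In complex I, the core subunit Ndufs1 rose 1.58-fold (adjusted p 0.0397). Uqcrc2 and Uqcrq of complex III had log2 fold changes of 0.49 and -0.42, and Cox7c and Cox8a of complex IV had -0.44 and -0.48, none past the threshold.

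The 17 genes for transcribing and copying the mitochondrial genome gave 0 calls in either direction in limma, with a median of 0.24. Polrmt, the polymerase that makes the precursors, read 428 and 459.8 in wild-type arches against 511.9 and 369.8 in transgenic ones, and the groups overlapped (log2 fold change -0.03, adjusted p 0.944). Tfam, which packages the genome and starts transcription, read 3810 and 3806 against 3852 and 4889 (log2 fold change 0.19, adjusted p 0.44). The helicase gene Twnk and the nuclease gene Mgme1 had the smallest p values of the list, at log2 fold changes of -0.54 and 0.44 with adjusted p values of 0.0846 and 0.094.

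Of 35 genes for processing and stability of mitochondrial RNA, 2 rose and 1 fell, with a median of 0.16, and counts this small are near the 2.97% and 5.28% of all genes called higher and lower. The one that fell was Tbrg4, also known as Fastkd4, an RNA-binding protein of the FASTK family that acts on mitochondrial messages. It read 896 and 922.6 in wild-type arches against 281.6 and 217 in transgenic ones, 3.65-fold lower, with a log2 difference of -1.87 ± 0.19 (SE, limma adjusted p 0.0194). Of the same family Fastkd2, which binds the large rRNA, rose 2.06-fold (adjusted p 0.0285). Ptcd3, a protein of the small mitochondrial ribosomal subunit, rose 1.7-fold (adjusted p 0.0393). Lrpprc, which stabilizes the messages, read 1693 and 1709 against 1549 and 1628, at an adjusted p of 0.651 (log2 fold change -0.10). The row of its partner Slirp held at most 3 reads in any library, and no fold is given.

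Of 76 mitochondrial ribosomal protein genes 0 were called by limma, with a median of 0.10; the smallest p values were those of Mrpl3 and Mrps30, at log2 fold changes of 0.48 and 0.52. The 18 genes for import, matrix and membrane proteins likewise gave 0 calls, with a median of 0.05, led by Timm50 and Immt at log2 fold changes of 0.41 and 0.36. Of 8 regulators of biogenesis 2 fell and 0 rose in limma, beside 5.28% lower and 2.97% higher among all genes tested. Those that fell were the widely expressed transcription factor Yy1, 2.22-fold lower (adjusted p 0.025), and Myc, 1.7-fold lower (adjusted p 0.0484). Ppargc1a, the coactivator that drives biogenesis in oxidative tissues, was low, at 21.51 and 37.03 in wild-type arches against 35.2 and 13.34 in transgenic ones. Of 7 mitophagy genes 2 rose and 0 fell in limma, beside the same shares of all genes. Bnip3 was 1.64-fold higher (adjusted p 0.038) and Map1lc3b 1.49-fold higher (adjusted p 0.0403), and the list's median was 0.43. After the length correction limma called 1 gene higher and 1 lower over all nuclear lists together, beside 0.659% higher and 0.998% lower among all genes. In the mitochondrial stress response 0 of 10 genes passed in limma, with a median of 0.10, and Atf5 and Asns had the smallest p values, at log2 fold changes of -1.59 and 0.64.

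**Figure D5:**
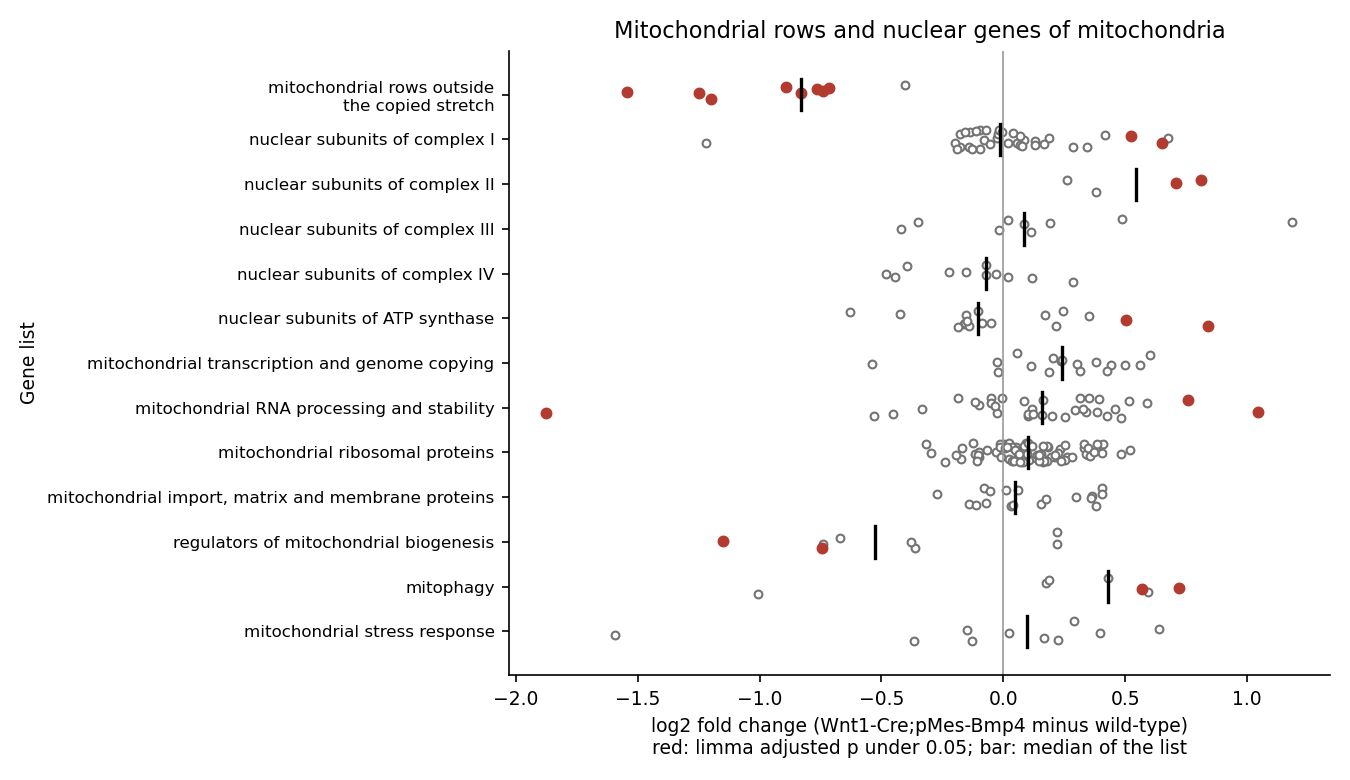
Log2 fold change (Wnt1-Cre;pMes-Bmp4 minus wild-type) of the 9 mitochondrial rows outside the copied stretch and of the genes tested in 12 nuclear lists, with 1 point per gene, red where the limma adjusted p is under 0.05, and a bar at each median. The mitochondrial rows have a median of -0.83, and the medians of the nuclear lists lie between -0.52 and 0.54.

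Transcript length moved with the groups in these libraries. The mitochondrial messages are 204 to 1824 bases long. Nuclear transcripts of that length with a mean of at least 50 had a median log2 fold change of 0.19 over 2568 genes, with 2.73% called lower and 3.43% higher. The median was 0.05 for all 12411 genes with a mean of at least 50, and 0.02 for all genes tested, whose minimum mean was 10. A value as low as that of mt-Co1 was reached by 5.1% of these 2568 genes. Among the 1169 with a mean of at least 1000, nearer the level of the mitochondrial rows outside the copied stretch, 2.74% reached it. Their median was 0.15, with 4.19% called lower and 4.45% higher. After a correction for transcript length limma called 7 mitochondrial rows lower and 0 higher, beside 0.998% and 0.659% of all genes, and with a correction for length and GC content it called 9 lower, mt-Nd1 among them, beside 4.58% and 3.98% of all genes. The part of length in the result was not tested beyond these corrections.

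Markers of other cell types were read beside these values. Erythroid markers summed to 807960 and 736660 normalized reads in wild-type and 419022 and 449668 in transgenic arches, with 4 of 10 lower and 0 higher in limma, beside 5.28% and 2.97% of all genes. All globin rows together took 2.28% and 2.12% of reads against 1.25% in each transgenic library, a 1.76-fold lower share beside the 1.71-fold of the mitochondrial rows. The part of blood cells in the mitochondrial result was not tested; with globin reads left out of the total, mitochondrial rows took 2.46% and 2.58% in wild-type arches against 1.32% and 1.6% in transgenic ones. Epithelium markers summed to 26523 and 20111 against 36165 and 33914, with 2 of 8 higher and 0 lower in limma, beside the same shares.

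Heart, a tissue very rich in mitochondria that lies next to the arch, was represented by few reads. Its 9 markers summed to 513.3 and 490.6 in wild-type arches against 613.2 and 511.7 in transgenic ones, Nppa was at 0 in every library, and 0 of 8 tested passed in limma. Endothelium markers summed to 3781 and 3837 against 4613 and 4788, those of cranial ganglia and neurons to 1018 and 739.5 against 896.9 and 645, and myeloid markers to 75.66 and 66.85 against 123.7 and 60.62, with 0 calls in limma in each list. The part of these cell types in the result was not tested.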

How the data were processed

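Each deposited value is a normalized read count, a signal per gene and library. The counter was featureCounts, per the file headers, and its counts had been divided by 1 size factor for each library. Named in the submitters' processing notes are fastp 0.21.0 and mm10. Per the labels' protocols, poly(A)-selected RNA was fragmented and primed with random hexamers. Not given in the sources used here are the aligner, annotation, strand setting and treatment of reads with several matches. Whole reads came out for 100% of values, within 0.01, when the value of 1 read was taken as the smallest above 0 in a library.

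The main test was limma 3.58.1 (R 4.3.3), with a trend, on log2(value + 1), a scale that understates the change of low genes, for genes with a mean of at least 10, two-sided, with Benjamini-Hochberg adjustment over all 16746 genes and a threshold of 0.05. The fit had 2 residual and 5.26 prior degrees of freedom. edgeR 4.0.16 and DESeq2 1.42.0 were run on recovered reads. Shares and ratios used exact permutation tests over libraries. The members, lists and tests were chosen with earlier results of these data known; the sums with chromosome 1 copies and the subsets free of them were added after seeing the data. All mitochondrial rows with a mean of at least 10 were named, with Polrmt, Tfam, Lrpprc, Slirp, Ppargc1a and Bmp4, and from each nuclear list at most 4 genes past the threshold by smallest p, or 2 where fewer than 2 passed; a gene that this rule names is not reported here. The length correction subtracted from each library a spline (4 degrees of freedom) on log2 transcript length, or on length and GC content. Sequences, lengths and coordinates came from GENCODE M21 on GRCm38, matched by symbol for all 37 rows; the search for shared stretches covered annotated transcripts only. The fits were tested on simulated data with the same spread in all libraries, which does not cover the gap between the transgenic libraries in the copied stretch.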

Additional observations from a re-analysis of the deposited data

How the results depend on the processing

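The 8 rows called lower were called in the same direction with a pseudocount of 0.5, no filter, a mean of at least 50, CPM or TMM scaling, edgeR and DESeq2, and 7 of them with a pseudocount of 5, quantile normalization, the length correction or the sums with copies. Limma without the trend called 0 mitochondrial rows and 0 genes in all (8 mitochondrial rows at an unadjusted p under 0.05). With the replicate number as a block 4 rows were lower, mt-Rnr1, mt-Rnr2, mt-Nd4 and mt-Nd6, and 0 higher, beside 3.24% and 0.985% of all genes. The numbers are not stated to pair the libraries. Deviations of same-numbered libraries correlated at -0.266 across 12411 genes, which are not independent. Leaving out 1 library gave 0 to 15 rows lower and 0 to 5 higher, a median over the protein-coding rows of -1.03 to -0.15 (-0.56 with all libraries), and 5 to 13 rows with separate shares of mitochondrial reads (3 with all). Leave-one-out ranges crossed 0 in the copied stretch: -1.0 to 2.69 for mt-Co2, -1.61 to 2.35 for mt-Atp8, -1.44 to 2.41 for mt-Atp6, -1.34 to 2.24 for mt-Co3, -1.03 to 2.17 for mt-Nd3 and -1.80 to 0.67 for mt-Nd4l. Summing with copies turned mt-Co3 to -0.41 and mt-Nd3 to -0.46, and the length correction turned mt-Tp to 0.20. Nuclear genes called lower (3) and higher (10) became 0 and 0 without the trend, 9 and 20 in DESeq2, 1 and 1 after the length correction, 0 to 20 and 0 to 57 without 1 library; the block gave 3 higher, and length with GC 6 lower. Where no value above shows it, the cause was not tested. Reads limited the tRNA rows, mt-Nd4l and mt-Nd3, with 27 to 450 reads in the last 2.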
